A study of Apis mellifera with 3 samples.

Results

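The pools labelled retired bee and spring bee were compared in messenger RNA of the hypopharyngeal glands of worker honeybees (Apis mellifera carnica Pollmann). The comparison took every transcript sequence with at least 10 RPKM (reads scaled to the length of the sequence and to the library total) in 1 of the 2 libraries. That kept 11413 of the 21441 sequences read in the 3 libraries of the series. Each sequence is 1 entry of a transcript set, and a gene can have several. The 11413 were grouped by the words of their protein match, or of their orthology text where the match had no name, into 45 lists, and separately by their biological process text.

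The retired pool is labelled day 9 after emergence from the comb and the spring pool day 6. The third library of the series is a winter pool, labelled day 3, whose values are given beside some results only. All pools were full sisters from queens inseminated with the sperm of an isolated drone, and each pool held 30 bees and gave 1 library. With 1 library per group there is no replicate check, no test across samples and no p-value. The bee type and the labelled day differed together, and whether the day labels are ages or collection times was not settled. The labels do not say what marks a bee as retired, and the protocol speaks of glands while the design text speaks of pooled heads.

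The hypopharyngeal glands are paired glands in the head of the worker. In nurse bees they secrete the proteins of royal jelly, a larval food, and in foragers they secrete enzymes that act on the sugars of nectar. The passage from nursing to foraging goes with a rising titre of juvenile hormone, and worker glands of the head also make and modify fatty acids.

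The retired library held 3.18 M uniquely mapped reads on 19574 sequences and the spring library 3.29 M on 19772. On a sequence of 1 kb, 3 reads amounted to 0.944 RPKM in the retired and 0.912 RPKM in the spring library. Before any group is described, 1 feature of the spring library stands out. It had 14 sequences with at least 100 spring reads and at most 1 retired read each, which together had 3 retired and 38706 spring reads. They took 1.18% of the spring reads (1.17 to 1.19% by Wilson's method), and 0 sequences showed the opposite pattern. Of the 14, 3 matched an RNA-dependent RNA polymerase entry of a spider and 11 had no match, and the winter library held 9 reads on all of them.

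Most sequences differed by less than 1.5-fold between the pools. The median log2 ratio of RPKM + 1, retired over spring, was -0.02, the 5th and 95th percentiles were -0.70 and 0.63, and 87.0% of sequences lay within 1.5-fold. On that scale 207 sequences (1.81%) were higher by 2-fold or more in the retired library and 224 (1.96%) lower by 2-fold or more. Adding 1 RPKM understates the ratio of sequences with low values. For named sequences the fold is therefore taken from the reads, each divided by its library's total, and a 95% interval (exact conditional binomial) follows it. Intervals cover the counting error of reads only, and they compare these 2 libraries rather than the conditions. PCR copies are not separate molecules, so the intervals may be too narrow even for counting error. By that measure 994 sequences (8.71%) had an interval above 1, higher in the retired library, and 1251 (11.0%) an interval below 1. Counts of list members below are to be read against these 2 shares, with a limit. An interval excludes 1 more readily where reads are many. Lists of well-read sequences can therefore exceed both shares at small ratios, and the shares were not matched for reads.

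The 207 sequences at least 2-fold higher took 8.41% of the retired reads and 2.0% of the spring reads. The 224 at least 2-fold lower took 0.280% of the retired reads and 1.85% of the spring reads. A named protein match was present for 88 of the higher and 66 of the lower sequences, and 83 and 139 had no match at all. Among 1717 sequences with under 50 reads in both libraries together, 94 were higher and 148 lower. Among 932 with at least 1000 reads, 17 were higher and 11 lower. Lower sequences thus rested on fewer reads, with a median of 35 over both libraries against 60 for the higher ones.

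**Figure D1:**
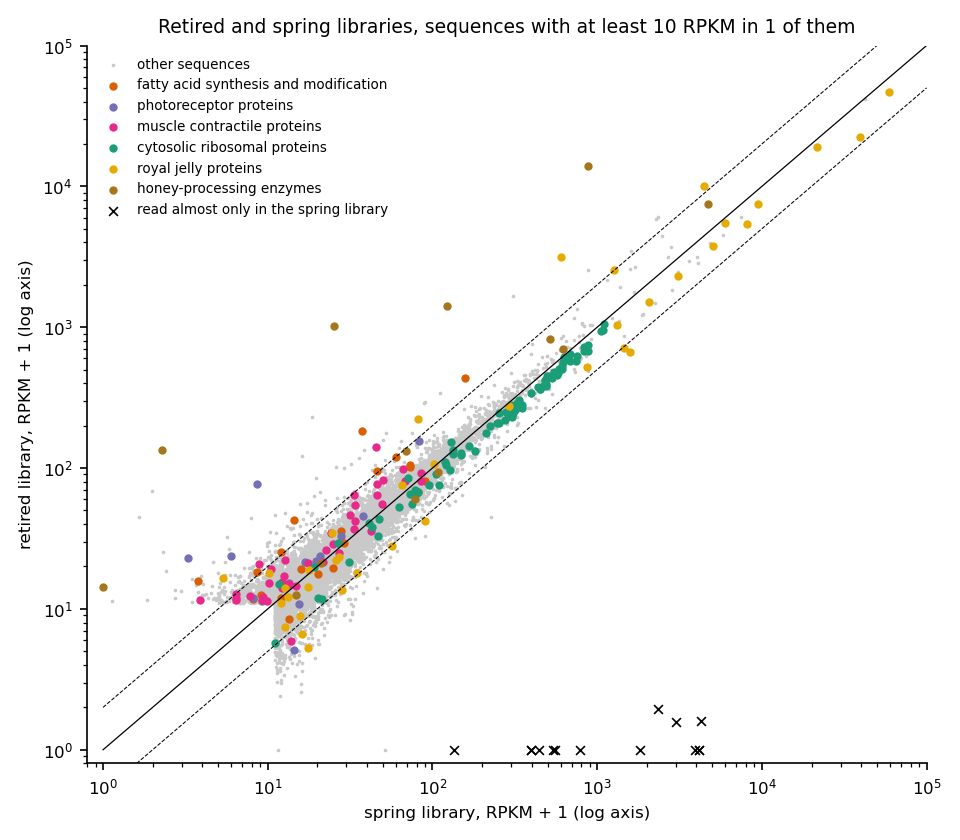
RPKM + 1 of 11413 sequences in the retired library (vertical, log axis) and in the spring library (horizontal, log axis), 1 point per sequence, with the line of equality and dashed lines at 2-fold. Points of fatty acid synthesis lie mostly on or above the line, ribosomal proteins just below it, and the 14 crosses near the bottom are those seen almost only in spring.

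Among named protein matches, taking the most read sequence of each match name, the 10 largest differences upward in RPKM were mostly in secreted products. An alpha-glucosidase (TC20807), which splits sucrose, stood at 13882 RPKM in the retired and 875 RPKM in the spring library. Major royal jelly protein 5 (TC12344) stood at 10017 RPKM in the retired and 4476 RPKM in the spring library. Defensin-1 (TC23147), an antimicrobial peptide found in royal jelly and honey, stood at 5889 retired against 2284 spring RPKM. Glucose oxidase, major royal jelly protein 6, chemosensory protein 1 and alpha-amylase were also among those 10, as was a further royal jelly sequence matched under the name MRJP5 (TC16893). The other two were a glucosylceramidase-like and a regucalcin-like sequence. The glucosylceramidase-like sequence (TC12483), whose relatives in other animals split glucosylceramide in lysosomes, stood at 1346 RPKM in the retired and 749.7 RPKM in the spring library, 1.79-fold higher (1.73 to 1.86). The regucalcin-like sequence (TC14544), with orthology text of a gluconolactonase, had 3708 retired against 2792 spring RPKM. The winter library had 708 RPKM of the glucosylceramidase-like and 2072 RPKM of the regucalcin-like sequence.

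Of the 10 largest differences downward among named matches, chosen in the same way, 6 were in royal jelly proteins. Major royal jelly protein 4 was counted under separate matches (TC12375 and DB733176). Major royal jelly protein 2 (TC24109) stood at 46801 RPKM in the retired and 58884 RPKM in the spring library. A royal jelly protein sequence without a number (TC18087) stood at 664 retired against 1582 spring RPKM. Another of the 10 was the polymerase-matching sequence TC16651, with 1 read in the retired and 7454 reads in the spring library. A further one (DB776283), matched to an immediate early protein homolog of Plasmodium, had 866 retired against 1449 spring RPKM. It was 1.67-fold lower (1.56 to 1.79). Outside these, cytochrome c oxidase subunit I (TC21016), which is encoded in mitochondria, had 2967 RPKM in the retired and 3594 RPKM in the spring library. The small heat shock protein lethal(2)essential for life (TC21895) had 2456 retired against 3085 spring RPKM, and 5091 RPKM in the winter library. As ratios these differences were small, at 1.26-fold, 1.21-fold and 1.26-fold lower for the jelly protein 2, oxidase and heat shock sequences.

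Enzymes that build and modify fatty acids had the highest median of the 45 lists after the honey-processing enzymes (0.68), though it ran from 0.20 to 0.99 over the processing alternatives. Of 21 sequences, on 19 proteins, 7 were 2-fold higher or more in the retired library and 0 were 2-fold lower. Intervals lay above 1 for 9 members (42.9%) and below 1 for 1, and the median log2 ratio was 0.48, against -0.02 for all sequences. The higher members covered successive steps of the pathway. Acetyl-CoA carboxylase (TC13271), which makes the malonyl-CoA that feeds synthesis, stood at 41.9 RPKM (952 reads) in the retired and 13.5 RPKM (317 reads) in the spring library.

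Fatty acid synthase (TC14567), which builds the chain, stood at 119 RPKM in the retired and 59.2 RPKM in the spring library, 2.01-fold higher on 2680 and 1380 reads (1.88 to 2.15). An acyl-CoA Delta(11) desaturase-like sequence (TC15577), an enzyme that puts a double bond into the chain, was the most abundant member, with 435 retired against 157 spring RPKM and a ratio of 2.77 (2.56 to 2.99). Chain-lengthening steps were higher as well. An elongase (TC14076) had 14.8 RPKM in the retired and 2.75 RPKM in the spring library, and elongase 6 (TC17604) had 94.4 retired against 45.4 spring RPKM. Trans-2,3-enoyl-CoA reductase (TC13028), the last step of an elongation round, was 1.45-fold higher (1.24 to 1.69). Fatty acyl-CoA reductase 1 (TC14245), which makes fatty alcohols, had 181 RPKM on 1427 reads in the retired library and 36.4 RPKM on 297 reads in the spring library.

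Not every member of these families was higher. The other Delta(11) desaturase-like sequences TC13546, TC12884 and TC17197 had 79.7, 18.4 and 34.7 RPKM in the retired library and 88.7, 23.8 and 26.8 RPKM in the spring library, and their intervals included 1. A reductase of another subfamily (TC14515, matched to Drosophila CG5065) was the member with an interval below 1, at 66.3 retired against 80.1 spring RPKM. A further reductase (TC14207), known by its orthology text alone, was 2.21-fold higher (1.66 to 2.97).

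Single enzymes of ether lipid and glycerol metabolism were higher as well. Alkyldihydroxyacetonephosphate synthase, the peroxisomal enzyme that forms the ether bond of ether lipids, was represented by 4 sequences matched to the enzyme. TC20069 had 158 RPKM in the retired and 48.9 RPKM in the spring library. TC16508 had 98.9 retired against 27.95 spring RPKM, and BI507197 had 137 retired against 61.4 spring RPKM. DB754073 had 49.7 retired against 25.1 spring RPKM. All 4 intervals lay above 1, but the sequences may be fragments of 1 gene. A glycerol kinase 5-like sequence (TC13350) was 2.32-fold higher (1.83 to 2.95). The wider list of phospholipid and sterol metabolism had 8 intervals above 1 and 13 below among 94 sequences and a median of -0.07.

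Lipases and enzymes of fatty acid breakdown held members in both directions. Of 44 sequences, 7 (15.9%) had intervals above 1 and 5 (11.4%) below, with a median of -0.0019. Over all sequences these shares were 8.71% and 11.0%, so the share below 1 was near that of all sequences. The higher ones were lipases and phospholipases. A pancreatic triacylglycerol lipase-like sequence (TC16189) had 90 reads in the retired and 5 in the spring library, or 24.4 retired against 1.31 spring RPKM, and was 18.6-fold higher with a wide interval (7.69 to 58.8). Membrane-associated phospholipase B1-like sequences, enzymes that strip both fatty acids from a phospholipid, stood at 33.6 and 42.2 RPKM in the retired library and 10.2 and 18.8 RPKM in the spring library for TC15231 and TC17076. Phospholipase A2 (TC13077), a match to venom phospholipase isozymes, had 169 retired against 119 spring RPKM.

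The 5 members with intervals below 1, a share near that of all sequences, belong to mitochondrial oxidation of fatty or branched acids. The trifunctional enzyme subunit alpha (TC15369), which carries out late steps of beta-oxidation, had 22.6 RPKM in the retired and 32.3 RPKM in the spring library. A medium-chain acyl-CoA dehydrogenase (TC13884), which starts an oxidation round, had 38.1 retired against 54.0 spring RPKM. The remaining ones were an enoyl-CoA hydratase, a 3-hydroxyacyl-CoA dehydrogenase and a branched-chain acyl-CoA dehydrogenase, between 1.21-fold and 1.57-fold lower. Carnitine O-palmitoyltransferase 1 (TC13888), which lets long chains into mitochondria, had 78.8 RPKM in the retired and 69.7 RPKM in the spring library, and its interval included 1.

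Other hydrolases and an oxidoreductase had high ratios on few spring reads. A venom acid phosphatase Acph-1-like sequence (TC14476) had 265 reads in the retired and 4 in the spring library, or 44.0 retired against 0.641 spring RPKM. A 15-hydroxyprostaglandin dehydrogenase-like sequence (TC18687), whose relatives in mammals inactivate prostaglandins, had 75 retired reads and 1 spring read. Their ratios of 68.6 and 77.6 have lower bounds of 26.5 and 13.5, and at this depth no closer value can be given. A plasma glutamate carboxypeptidase-like sequence (TC16621) was better read, with 1119 reads in the retired and 335 in the spring library and 177 retired against 51.2 spring RPKM. The winter library had 8.77 RPKM of the phosphatase and 266 RPKM of the carboxypeptidase.

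Enzyme families with roles in detoxification were higher in the retired library for a subset of members. The list joins cytochrome P450 enzymes, some of which oxidise foreign compounds, with conjugating transferases and carboxylesterases. Members were matched by family name, and which of them act in detoxification was not tested. Of 43 sequences, 6 were 2-fold higher or more and 0 were 2-fold lower. Intervals lay above 1 for 15 members (34.9%) and below 1 for 2, while the median was only 0.09. Esterase A2 (TC14641) had 67.1 RPKM on 391 reads in the retired library and 19.7 RPKM on 119 reads in the spring library. An ecdysteroid UDP-glucosyltransferase-like sequence (TC16552), of a family that attaches sugar to small molecules, had 25.6 retired against 4.83 spring RPKM. An esterase FE4-like sequence (TC14308) had 61 reads in the retired and 5 in the spring library.

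Among the cytochrome P450 sequences, 6a14 (TC14206) stood at 45.2 RPKM in the retired and 17.4 RPKM in the spring library, 2.60-fold higher (2.19 to 3.11). P450 6k1 (TC16184) had 27.0 retired against 8.95 spring RPKM, and P450 4G11 (TC12371) had 12.6 retired against 5.91 spring RPKM. The intervals of the 3 P450 sequences with the most RPKM included 1. P450 9e2 sequences TC16406, TC12628 and TC13050 stood at 159.7, 119 and 95.5 RPKM in the retired library and 162, 125 and 99.3 RPKM in the spring library. Both members with intervals below 1 were glutathione S-transferases (TC23852 and TC14300), which attach glutathione, at 1.45-fold and 1.18-fold lower. Glutathione S-transferase D1 (TC15160) was 3.76-fold higher on 40 and 11 reads. In the winter library P450 6a14 had 5.24 RPKM, esterase A2 9.64 RPKM and the glucosyltransferase 1.16 RPKM.

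**Figure D2:**
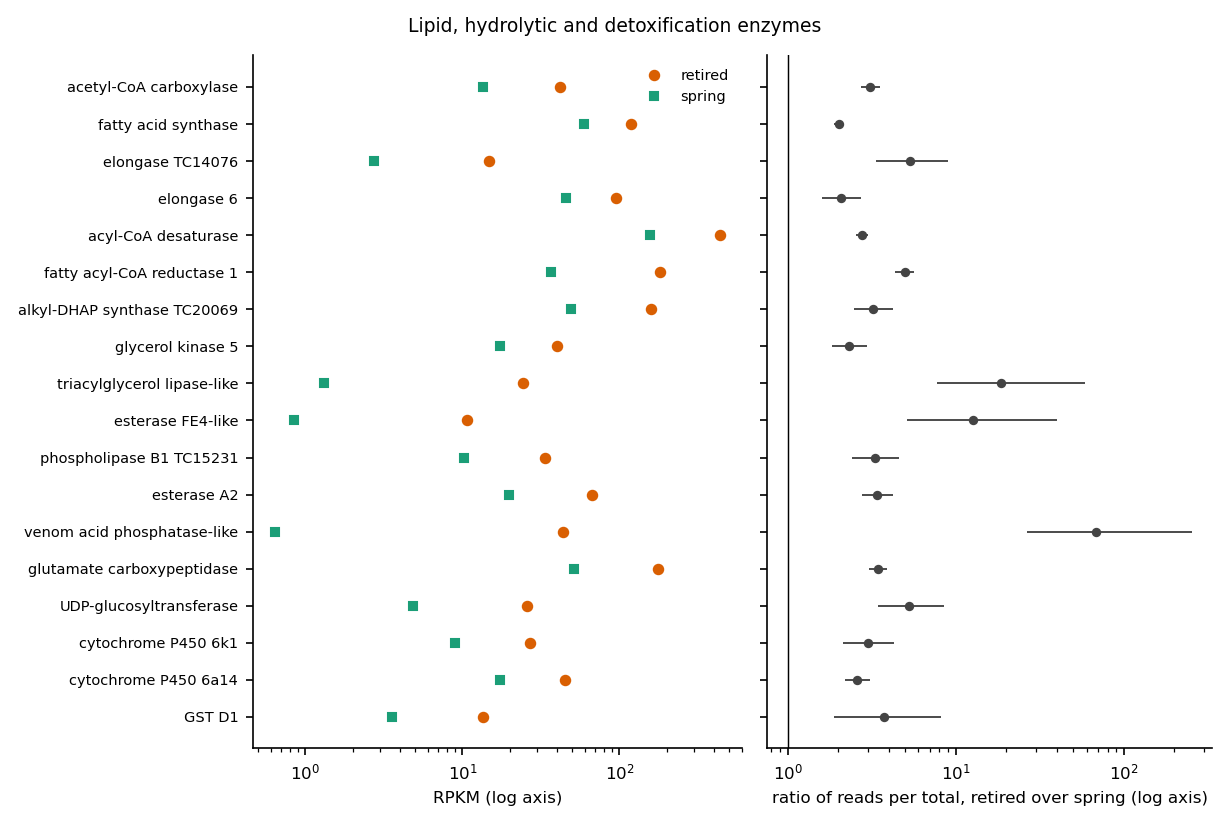
RPKM in the retired (circles) and spring (squares) libraries on a log axis, and at right the ratio of reads per library total, retired over spring, on a log axis with exact 95% intervals that cover counting error only. All 18 enzymes were chosen as examples of higher levels, so every ratio lies right of 1, and the widest intervals belong to those with at most 5 spring reads.

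Antioxidant enzymes gave fewer differences. Of 19 sequences, catalase (TC12461), which breaks down hydrogen peroxide, was the 1 with an interval above 1, at 37.0 RPKM in the retired and 23.9 RPKM in the spring library. The intervals of 2 lay below 1, and the median was -0.12.

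Binding proteins and receptors of smell and taste went both ways. Of 16 sequences, 5 had intervals above 1 and 4 below. Every member with an interval above 1 was a soluble binding protein. Chemosensory protein 1 (TC15471), a small carrier of hydrophobic compounds, stood at 1660.2 RPKM in the retired and 308 RPKM in the spring library, 5.40-fold higher (4.94 to 5.90), and at 2252 RPKM in the winter library. Odorant binding protein 4 (TC13645) had 104 retired against 44.0 spring RPKM and odorant binding protein 21 (TC12618) had 47.4 retired against 25.3 spring RPKM. Odorant binding proteins 3 and 18 were also higher, on 18 retired against 3 spring and 25 retired against 8 spring reads. Chemosensory protein 3 (TC16300) and odorant binding protein 10 (TC12520) had intervals that included 1, with 292 and 60.2 RPKM in the retired library and 264 and 59.4 RPKM in the spring library.

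The members with intervals below 1 were taste receptors and takeout-like proteins. Gustatory receptor 10 (TC16133) had 24.8 RPKM on 82 reads in the retired library and 59.5 RPKM on 204 reads in the spring library, 2.40-fold lower (1.85 to 3.15). Another receptor sequence, known by its orthology text (TC13118), was 1.32-fold lower (1.06 to 1.66). Takeout-like proteins bind small hydrophobic molecules and are linked to feeding behaviour in Drosophila. Their sequences TC13883 and TC16421 had 53.8 and 23.2 RPKM in the retired library, 85.1 and 36.8 RPKM in the spring library, and 4.86 and 1.97 RPKM in the winter library. In an antenna marker list the summed odorant receptors had 142 reads in the retired and 158 in the spring library, with an interval that included 1. The chemosensory proteins of that list had 3822 retired against 1225 spring reads. Chemosensory protein 1 alone held 3149 and 604 of these, and of the 8 sequences 1 had an interval above 1 and 0 below.

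Transcripts of light detection were higher for several defining proteins. Of 15 sequences, 7 (46.7%) had intervals above 1 and 1 below, with a median of 0.27 (0.19 to 2.03 over the alternatives). Long-wavelength rhodopsin (TC16465), the green-sensitive pigment of the bee eye, stood at 76.0 RPKM on 557 reads in the retired library and 7.64 RPKM on 58 reads in the spring library, 9.94-fold higher (7.57 to 13.3). Arrestins, which switch activated opsins off, had 22.9 and 155 RPKM in the retired library and 4.94 and 81.9 RPKM in the spring library for TC14219 and TC23139. A TRP-like channel of phototransduction (TC18882) had 37 retired against 4 spring reads. The ultraviolet-sensitive opsin (TC12399) had 31.8 RPKM in the retired and 26.7 RPKM in the spring library, and its interval included 1. The 1 member below was a rhodopsin-like sequence with 8 retired against 27 spring reads. The winter library had 19.7 RPKM of long-wavelength rhodopsin.

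Some muscle proteins, which are not gland products, were also higher. Of 39 sequences on 30 proteins, 14 (35.9%) had intervals above 1 and 1 below, and the median was 0.38 (0.26 to 0.64 over the alternatives). Troponin C type IIIa (TC18427), a calcium sensor of the thin filament, had 140.1 RPKM in the retired and 44.6 RPKM in the spring library, 3.14-fold higher (2.63 to 3.78). Troponin T (NP1608872) had 76.5 retired against 44.8 spring RPKM, paramyosin (TC14580), a core protein of thick filaments, 81.9 retired against 49.1 spring RPKM, and muscle myosin heavy chain (TC13869) 96.8 retired against 65.5 spring RPKM. The calcium pump of the sarcoplasmic or endoplasmic reticulum (TC13677) had 79.8 RPKM in the retired and 83.8 RPKM in the spring library, with an interval from 0.878 to 1.04. The winter library had 76.4 RPKM of troponin C.

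Marker lists of the tissues that a head or gland pool could hold were summed beside these results. The summed photoreceptor markers were 2.24-fold higher in the retired library (2.07 to 2.42), with 3 of 4 markers read and no sequence matched to norpA by name. Of the 839 retired and 326 spring opsin reads in that sum, long-wavelength rhodopsin alone held 557 and 58. The arrestin and channel markers had ratios of 1.99 and 2.21. The summed muscle markers were 1.56-fold higher (1.504 to 1.62), with 7 of 8 markers having a sum interval above 1, and flightin, a marker of flight muscle, had 2 reads in the retired and 0 in the spring library. Neuron markers had 1886 summed RPKM in the retired and 1862 in the spring library (ratio 0.993, 0.965 to 1.02, all 7 markers read). Fat body markers (0.998, 0.972 to 1.03, all 4 read) and hemocyte markers (1.06, 0.974 to 1.14, 3 of 4 read, eater not matched) had intervals that included 1. Single markers differed within these sums. Among neuron markers 2 sum intervals lay below 1 and 0 above. In the fat body list hexamerin (0.448) and apolipophorin (0.882) lay below 1 and transferrin (1.15) above. In the hemocyte list hemolectin (0.620) lay below 1 and peroxidasin (1.26) above.

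Antenna markers (2.61, 2.47 to 2.76, all 3 read), cuticle markers (1.44, 1.21 to 1.72, 1 of 3 read, chitin synthase and apidermin not matched) and glia markers (1.14, 1.09 to 1.19, 2 of 3 read, repo not matched) lay above 1. The antenna sum rested largely on chemosensory protein 1, with 3149 retired against 604 spring reads. Odorant-binding proteins had a ratio of 1.55 (1.37 to 1.75) and odorant receptors one of 0.930 (0.736 to 1.17). Gland markers, that is royal jelly proteins, apisimin and honey enzymes, summed to 159140 RPKM in the retired and 173183 RPKM in the spring library, while their summed reads gave a ratio of 1.06 (1.05 to 1.06). By reads, glucose oxidase, alpha-glucosidase and amylase lay above 1 and the royal jelly proteins below, with a ratio of 0.864. The defining products of the gland were thus read in both pools, beside nerve, eye and muscle transcripts. The part of other tissues in any difference given here was not tested. In pooled RNA, more cells of a type and more RNA per cell cannot be told apart.

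Defence peptides were higher and lysozymes lower, each with an exception. Of 15 immune effectors and recognition proteins, 4 had intervals above 1 and 2 below. Defensin-1, given above, was 2.58-fold higher (2.50 to 2.66) on 12835 and 5151 reads. Abaecin (TC23893), another antibacterial peptide of bees, had 84.2 RPKM on 100 reads in the retired library and 18.7 RPKM on 23 reads in the spring library. For hymenoptaecin (TC12701), a further such peptide, a difference was not detectable at this depth, with 39 retired against 45 spring reads (ratio 0.897, 0.569 to 1.41).

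The scavenger receptor class B sequences TC13072 and NP9546325, of a family that takes up lipids and particles, were 1.68-fold and 1.62-fold higher. Both members with intervals below 1 were lysozymes, which cut bacterial cell walls. Lysozyme c-1 (TC20941) had 31.3 RPKM in the retired and 59.3 RPKM in the spring library, and lysozyme TC17213 had 59.9 retired against 80.1 spring RPKM. A further lysozyme c-1 sequence (TC14701) had 33 retired against 27 spring reads, with an interval that included 1. Peptidoglycan-recognition proteins S2, LC and SA, which sense bacteria, had ratios of 1.04, 1.02 and 0.862, and the transcription factor dorsal (TC12323) a ratio of 0.975, all with intervals that included 1.

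Among hormone genes, Krueppel homologous protein 1 and E75 were higher in the retired library. Of 19 sequences of the juvenile hormone and ecdysteroid list, 5 had intervals above 1 and 1 below, with a median of 0.06. Of these 5, 1 was the UDP-glucosyltransferase-like sequence TC16552, also counted in the detoxification list, and E75 entered with more than 1 sequence. Krueppel homologous protein 1 (TC12391), a transcription factor induced by juvenile hormone in insects, had 18.4 RPKM on 88 reads in the retired library and 6.88 RPKM on 34 reads in the spring library, 2.68-fold higher (1.78 to 4.11). The nuclear receptor E75, induced by ecdysone, was higher in all 3 of its sequences, with TC21206 at 126 retired against 83.9 spring RPKM and TC17506 at 32.9 retired against 16.2 spring RPKM. The ecdysone receptor (TC12324) had 76.3 RPKM in the retired and 77.2 RPKM in the spring library, and its partner ultraspiracle (TC12297) had 28.4 retired against 26.3 spring RPKM. The intervals of both, and of the 3 broad-complex sequences of the list, included 1.

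The 1 member with an interval below 1 (TC18433) carries orthology text of a juvenile hormone acid methyltransferase, the enzyme of the last steps of hormone synthesis, and had 44 reads in the retired and 73 in the spring library. Of 9 neuropeptide and receptor sequences, 4 had intervals above 1 and 0 below. The corazonin receptor (NP9552693), the receptor of a neuropeptide, had 46 retired against 14 spring reads and was 3.40-fold higher (1.84 to 6.70). Prohormone-2 (TC13993), a neuropeptide precursor, had 129 RPKM in the retired and 91.3 RPKM in the spring library. The clock genes period (TC12294) and cryptochrome 2 (TC12365) had ratios of 1.10 and 1.09 with intervals that included 1, and a vrille sequence (TC15262), a clock transcription factor, was 1.65-fold higher (1.30 to 2.10).

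**Figure D3:**
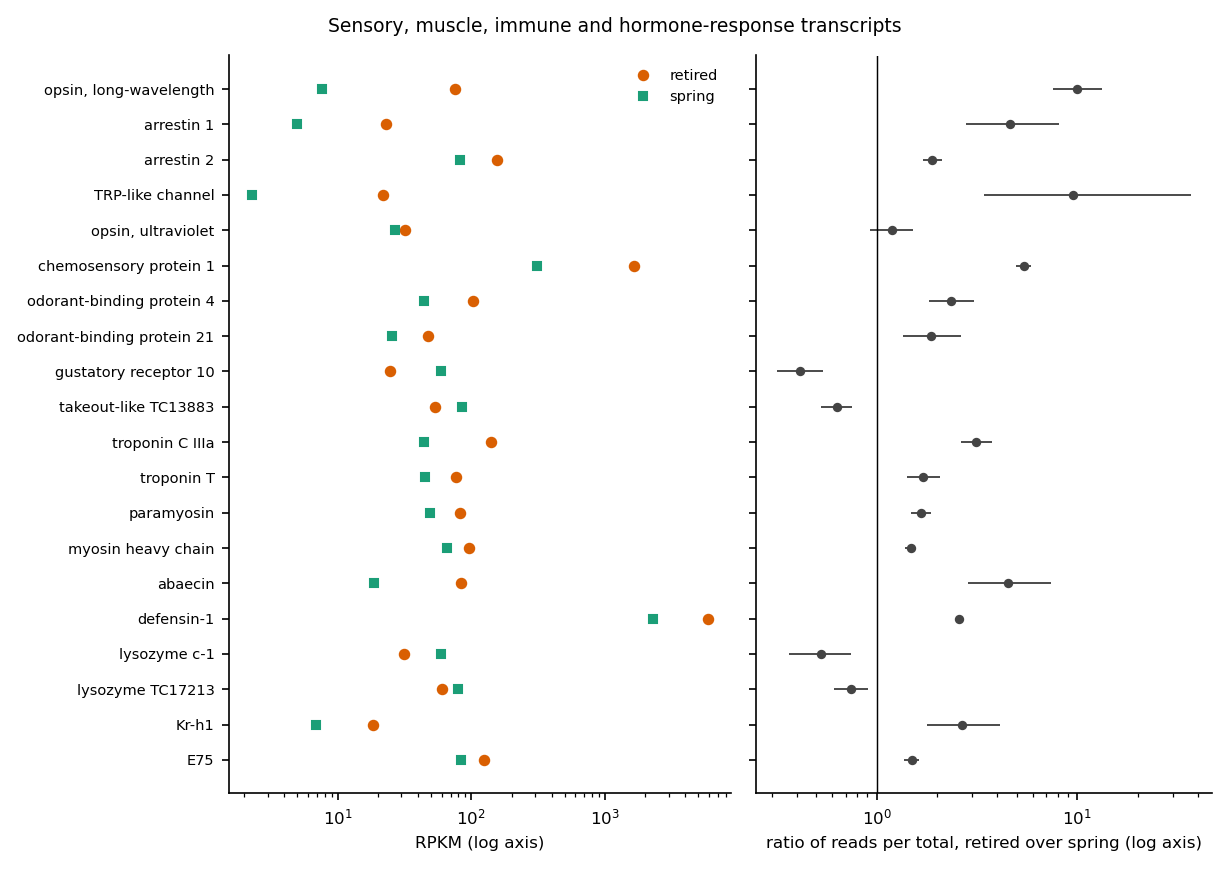
RPKM in the retired (circles) and spring (squares) libraries on a log axis, and the ratio of reads per library total, retired over spring, on a log axis with exact 95% intervals that cover counting error only. Gustatory receptor 10, a takeout-like sequence and both lysozymes lie left of 1, the ultraviolet opsin spans it, and the other 15 lie right of it.

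The lists of protein production were lower by small amounts in many members. Of 84 cytosolic ribosomal proteins, 53 (63.1%) had intervals below 1 and 1 above, yet 0 reached 2-fold on the RPKM + 1 scale and the median was -0.24. Part of the ribosome assembly list was lower too. Among 53 nucleolar and biogenesis sequences, 10 had an interval under 1 and 0 above, and their median was -0.23. The ribosome biogenesis regulatory protein (NP9549937) had 15.7 RPKM in the retired and 30.4 RPKM in the spring library, and the pre-rRNA processing protein TSR1 (NP9553581) had 10.1 retired against 16.5 spring RPKM.

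Ribosomal proteins of mitochondria had 10 intervals below 1 and 1 above among 57, with a median of -0.18. Translation factors had 22 below and 2 above among 61. Initiation factor eIF-3 subunit K (DB751716), a part of the complex that loads the small subunit, had 60.8 RPKM in the retired and 114 RPKM in the spring library. Aminoacyl-tRNA synthetases, which charge tRNA with amino acids, had 14 below and 0 above among 35. Isoleucyl-tRNA synthetase (TC21473) had 11.6 retired against 20.1 spring RPKM.

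Enzymes of amino acid synthesis differed one by one. Asparagine synthetase (TC18735), which makes asparagine, had 126 RPKM on 728 reads in the retired library and 214 RPKM on 1282 reads in the spring library, 1.70-fold lower (1.55 to 1.87), with 17.1 RPKM in the winter library. D-3-phosphoglycerate dehydrogenase (TC22517), the first enzyme of serine synthesis, went the other way, at 37.6 RPKM in the retired and 19.3 RPKM in the spring library. The amino acid list as a whole had 4 intervals above 1 and 8 below among 38.

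Part of the lists for entry into and passage through the secretory pathway was lower too. The list of folding in and entry into the endoplasmic reticulum had 21 of 41 intervals below 1 and 3 above, with a median of -0.25. Sec61 beta (TC12693), a subunit of the channel into the reticulum, had 56.3 RPKM in the retired and 96.1 RPKM in the spring library. Golgi and vesicle transport had 14 of 46 intervals below 1 and 1 above, with a median of -0.21. Sec23A (TC12717), a coat protein of vesicles that leave the reticulum, had 64.3 RPKM on 509 reads in the retired library and 93.0 RPKM on 762 reads in the spring library.

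The sequences were also grouped by their process text, which the lists did not use. Among 28 process terms with at least 15 proteins, gene expression (72 proteins) and translation (45 proteins) had the lowest medians, at -0.20 and -0.19. For gene expression 28 intervals lay below 1 and 2 above, and for translation 13 below and 0 above. Over all 1353 proteins with a process term the median was -0.05, with 8.94% of intervals above 1 and 12.5% below. The highest medians were those of primary metabolic process (19 proteins, 0.15) and female gamete generation (19 proteins, 0.13). The terms share proteins with the lists, so they are not independent of them.

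**Figure D4:**
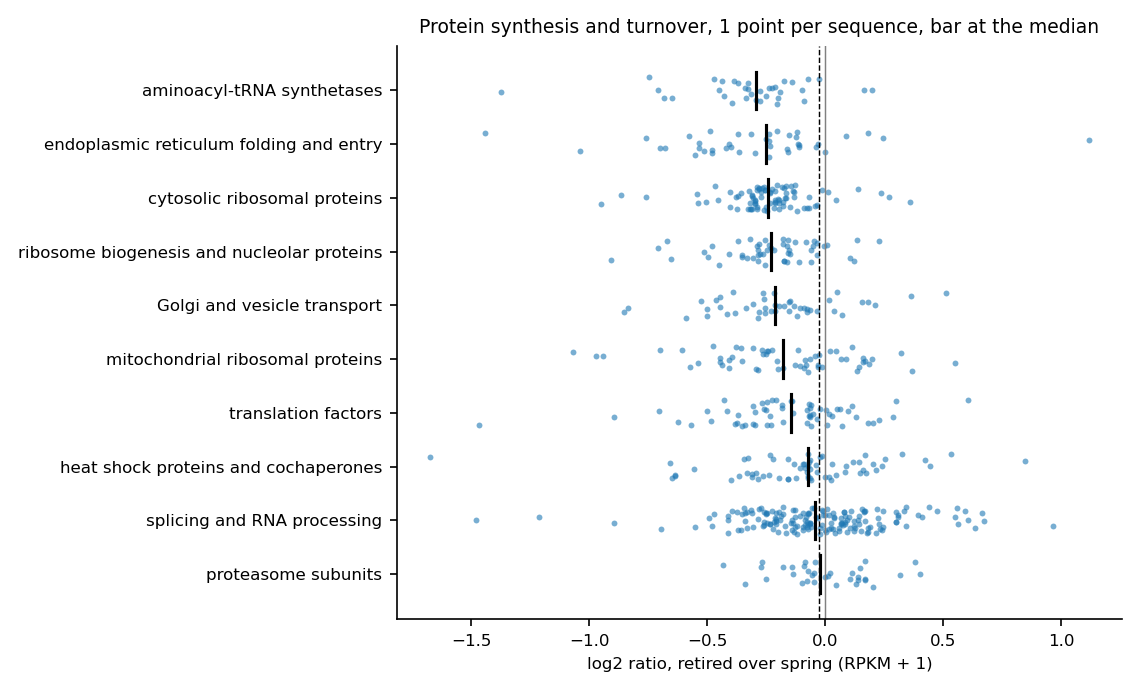
Log2 ratio of RPKM + 1, retired over spring, for each sequence of 10 lists of protein synthesis and turnover, with a bar at the list's median, a solid line at 0 and a dashed line at the median of all sequences (-0.02). Medians run from -0.29 for aminoacyl-tRNA synthetases to -0.02 for the proteasome.

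In energy metabolism, some transcripts of the mitochondrial genome were lower. Oxidative phosphorylation had 2 intervals above 1 and 10 below among 72, with a median of -0.02. The 9 sequences matched to proteins of the mitochondrial genome took 0.574% of the retired and 0.722% of the spring reads, with 4 intervals below 1, 0 above and a median of -0.33. Cytochrome b (TC20467), a subunit of respiratory complex III, had 268 RPKM in the retired and 483 RPKM in the spring library, and cytochrome c oxidase subunit II (TC12635) had 271 retired against 423 spring RPKM. Subunit III (TC17023) had 90.5 retired against 90.0 spring RPKM, with an interval from 0.838 to 1.21. The tricarboxylic acid cycle had 7 intervals above 1 and 2 below among 26, and glycolysis and sugar handling had 7 above and 3 below among 34. Pyruvate carboxylase (NP9543736), which refills the cycle, had 48.4 RPKM in the retired and 33.1 RPKM in the spring library.

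Solute transporters were balanced as a group, with 23 intervals above 1 and 23 below among 183. Single members differed. A trehalose transporter Tret1-like sequence (NP9547680), of a family that carries the main blood sugar of insects, had 36.3 RPKM on 178 reads in the retired library and 13.2 RPKM on 67 reads in the spring library. A proton-coupled amino acid transporter (NP9553622) had 75 retired against 28 spring reads. Of 10 storage proteins and lipid carriers, 2 had intervals above 1 and 2 below. The most read of them, an apolipophorins-like sequence (TC23177), had 4565 retired against 5478 spring reads and was 1.16-fold lower (1.11 to 1.21). Transferrin 1 (TC12326) had 5139 retired against 4585 spring reads and was 1.16-fold higher (1.11 to 1.21). Apolipophorin-III (TC13121), a lipid carrier of the blood, had 41.5 RPKM in the retired and 24.04 RPKM in the spring library. Hexamerin (TC12320), a storage protein, had 33 retired against 93 spring reads and was 2.72-fold lower (1.81 to 4.18). An alcohol dehydrogenase [NADP+]-like sequence (TC21661) had 26 retired against 104 spring reads and was among the lowest named sequences, at 3.87-fold lower (2.50 to 6.19).

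Lists of gene regulation and the proteasome had shares near or under those of all sequences (8.71% above 1 and 11.0% below). Transcription factors had 21 intervals above 1 (9.17%) and 25 below (10.9%) among 229. Chromatin proteins had 4 (3.92%) and 6 (5.88%) among 102, and splicing proteins 7 (4.17%) and 15 (8.93%) among 168. Proteasome subunits had 1 above (2.94%) and 3 below (8.82%) among 34. Cell death regulators had 0 above and 4 (30.8%) below among 13. The lowest of these, a homologue of the Bcl-2 family member BOK (NP9551446), had 11.6 RPKM in the retired and 23.1 RPKM in the spring library. Another of those below, matched to programmed cell death protein 2 (TC18121), carries orthology text of a pre-rRNA-processing protein. Insulin and TOR signalling had 0 above and 3 (18.8%) below among 16, among them a sequence with orthology text of the insulin receptor (NP9547950), the receptor that couples feeding to growth, at 18.5 retired against 24.6 spring RPKM. The others entered by words of their names and may lie outside the pathway. They matched an insulin-like growth factor-binding protein complex acid labile subunit (TC13391) and a ribosomal protein S6 kinase delta-1 (TC18039). Heat shock proteins and cochaperones had 8 above and 16 below among 65 (12.3% and 24.6%), over the share of all sequences in both directions.

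**Figure D5:**
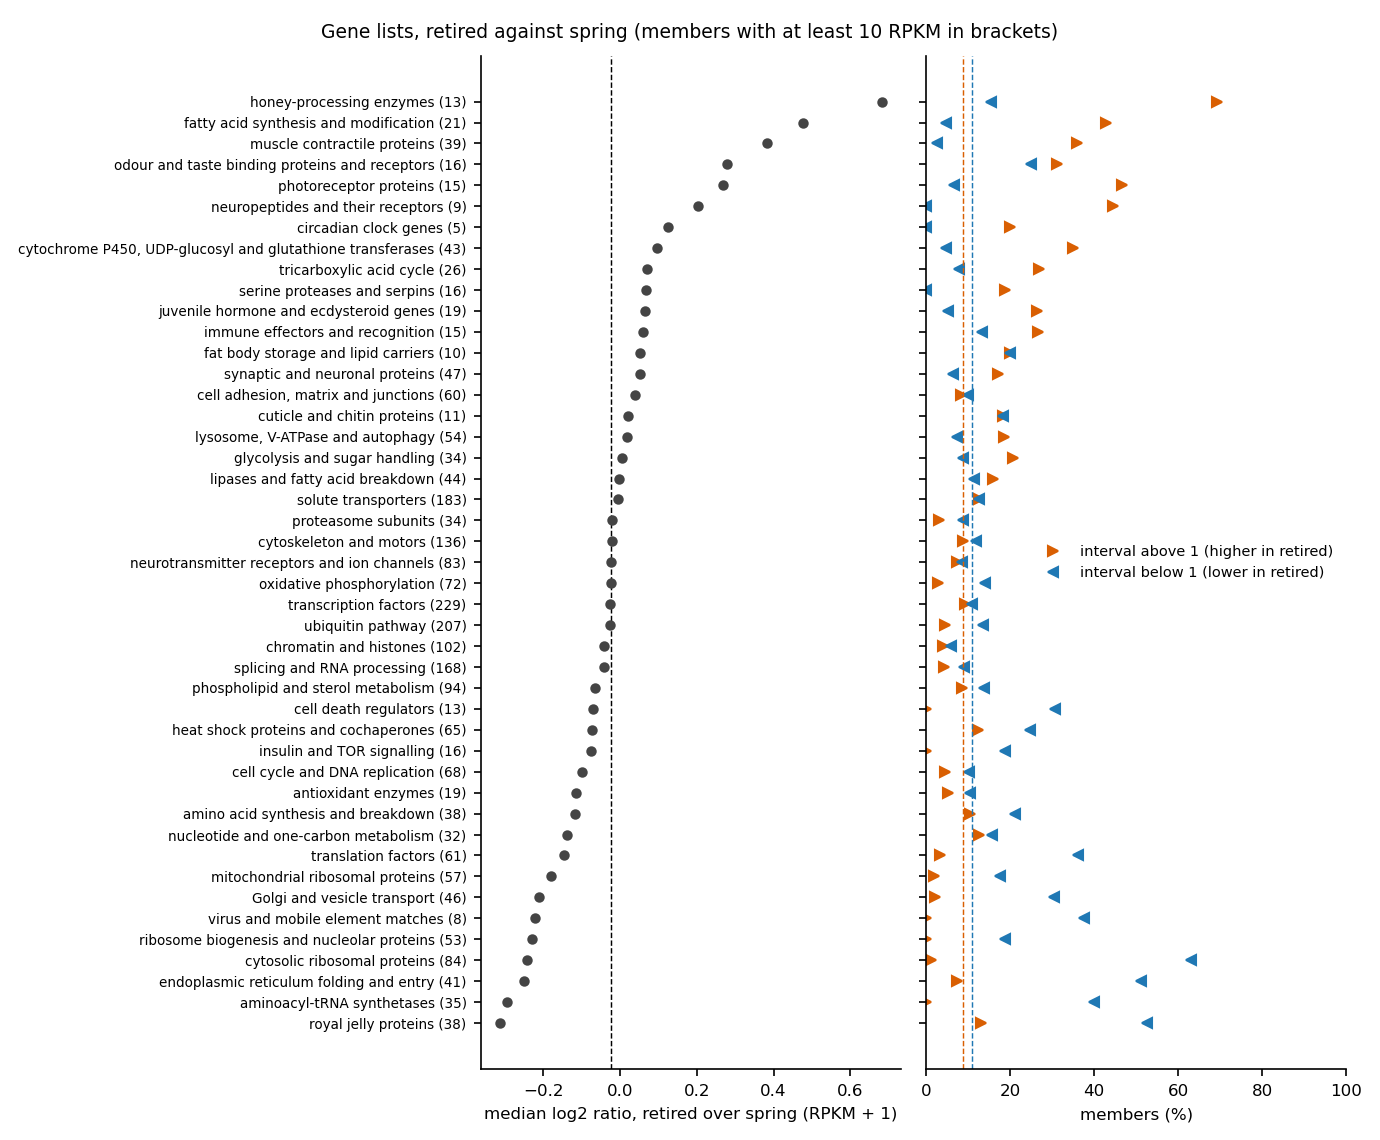
Median log2 ratio of RPKM + 1, retired over spring, per list (left) and the percent of members with a read ratio interval above 1 or below 1 (right), for 45 lists with the number of members in brackets. Dashed lines mark all sequences (-0.02 at left, 8.71% above and 11.0% below at right), and the lists of protein production gather at the bottom.

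Sequences without any protein match held further large differences. BI514159 had 66 reads in the retired and 1 in the spring library, and TC20409 had 202 retired against 26 spring reads. TC24306 was abundant in both, at 6034 RPKM in the retired and 2342 RPKM in the spring library, and BI509691 stood at 3484 retired against 1593 spring RPKM. The winter library had 1092 and 709 RPKM of TC24306 and BI509691. With no match and no orthology text, nothing can be said of what these transcripts encode.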

How the data were processed

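Per the labels' protocols, RNA of glands pooled from 30 bees was extracted with TRIzol, enriched on oligo(dT) beads, fragmented, amplified by PCR and sequenced. The aligner and the sequence set were not given in the sources used here. Per the file headers, the deposited tables give for each transcript sequence a count of uniquely mapped reads, its length, RPKM and coverage, the fraction of its length with reads. The deposited counts sum to the library totals of the headers, and the deposited RPKM were recomputed from counts, lengths and totals with a largest difference of 5.46e-11. Reads that map to several near-identical sequences, such as royal jelly paralogs, are not counted, so values of such families are uncertain.

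The retired and spring tables were joined on the sequence identifier, and a sequence not listed was taken as 0 reads. Log2 ratios used RPKM + 1 and a minimum of 10 RPKM in 1 library. Read ratios have Clopper-Pearson 95% intervals. Computations used Python 3.11.15 (pandas 2.3.3, numpy 2.4.6, matplotlib 3.10.9, scipy 1.17.1) and were checked on simulated data. Gene symbols from a table of assembly Amel_HAv3.1 were matched to 3079 of the sequences compared. A name says which protein a sequence resembles.

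The members and the 45 lists were chosen with earlier results of these data known, and the words of the lists were trimmed by protein function after values had been seen. The plan also named process text for matching lists; it was set aside for words of the protein match, and was tried as an added alternative. Named sequences were the 20 highest and 20 lowest named matches, the 10 largest gains and losses in RPKM, up to 4 members per list with the largest log2 ratio, and the 8 highest and 8 lowest process terms, from which examples are given. Other sequences named, including those without a match, were chosen after their values were seen. Alternatives are listed with their effect at the end.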

Additional observations from a re-analysis of the deposited data

How the results depend on the processing

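The counts of sequences higher or lower by 2-fold or more (207 and 224) moved by more than 1.5 times under 6 settings. They were 110 and 104 with a pseudocount of 5 RPKM, 865 and 1150 with a minimum of 1 RPKM or with none, 49 and 32 with a minimum of 50 RPKM, 113 and 76 with at least 50 reads in the 2 libraries, and 32 and 23 at a 4-fold threshold. The lower sequences outnumbered the higher ones at the low minimum values and not at 50 RPKM or 50 reads. The counts stayed within 1.5 times with a pseudocount of 0.1 RPKM, TPM, both rescalings, 1 sequence per protein, a minimum on coverage, and without the 14 sequences seen almost only in spring, a setting added after seeing the data. The scalings shifted all log2 ratios by -0.02 to 0.06. Of the 13 lists with a median of at least 0.2 in size, the sign held in 194 of 195 values under 15 alternatives. The exception was the list of virus and mobile element matches, whose median of -0.22 was 0.012 with named Apis mellifera matches only, which leaves out the polymerase matches to a spider. Of these 13, 8 medians moved by over 1.5 times. They ran from 0.20 to 0.99 for fatty acid synthesis, 0.43 to 0.81 for honey-processing enzymes, 0.26 to 0.64 for muscle, 0.19 to 2.03 for photoreceptor proteins, 0.02 to 0.43 for odour and taste, 0.04 to 0.37 for neuropeptides, -0.34 to -0.19 for royal jelly proteins and -8.64 to 0.01 for virus matches. No paired analysis was possible because each group had 1 library. Depth limits low sequences most, and no spread between bees or pools could be had.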
